A study of Homo sapiens with 12 samples.

Results

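The interaction of ACSL5 knockdown with palmitic acid (PA, palmitate) was measured by RNA sequencing of poly(A) RNA from LM3 cells, a lung-metastatic line derived from MDA-MB-231, an established human triple-negative breast cancer line. For each gene, the interaction was the log2 palmitate response in shACSL5 cells less the log2 palmitate response in shControl cells, so a positive value means a larger rise or a smaller fall with palmitate in the knockdown. All 12 of the 12 libraries entered it, in 4 groups of 3. The shACSL5+PA group carried a short hairpin RNA against ACSL5 and received palmitic acid, the shACSL5 group carried a hairpin against ACSL5 without palmitic acid, the shControl+PA group carried a control hairpin and received palmitic acid, and the shControl group carried the control hairpin alone. All cells were grown in DMEM with serum. The series text asks about ACSL5 in lung-tropic breast cancer metastasis, and calls the hairpin-carrying cells deficient for ACSL5. The dose, duration and vehicle of palmitate, the hairpin sequence and the number of clones: none is given in the sources used here, and effects of a vehicle or of 1 hairpin therefore cannot be told apart from those of palmitate or of ACSL5. Since no label calls the replicates separate cultures, p-values measure the spread between these libraries, which may be technical.

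ACSL5 belongs to the long-chain acyl-CoA synthetases and sits on mitochondria and the endoplasmic reticulum (ER). It joins coenzyme A to fatty acids such as palmitate, a saturated fatty acid, and only the activated form can be oxidised, built into lipids or attached to proteins. Free fatty acids activate PPAR transcription factors, excess saturated fatty acids are known to trigger ER stress and inflammatory NF-kB signalling, and SREBP factors raise the enzymes of sterol and unsaturated fatty acid synthesis when membrane lipids call for them.

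ACSL5 itself checked the labels: it averaged 15.3 ± 2.19 CPM in shACSL5+PA against 11.2 ± 1.16 CPM in shACSL5, and 191 ± 2.73 CPM in shControl+PA against 143 ± 1.69 CPM in shControl (SD, n = 3 each). These levels left 8.01% of the shControl level with palmitate and 7.82% without it, the groups did not overlap, and the exact 2-sided permutation test gave p = 0.1 each time, the smallest that 3 against 3 allows. Its interaction was 0.03 (SE 0.10, adjusted p = 0.897), with a 95% interval of -0.21 to 0.27. Library totals ran from 16788694 to 21814751 counts. Along the main axes of a principal component analysis, the first component separated the hairpins (47.4% of the variance) and the second the treatments (12.8%). The third (5.61%) ran across libraries of the same group, with shACSL5 replicate 2 and shControl+PA replicate 3 at one end and shACSL5+PA replicates 2 and 3 at the other. All 9 markers of MDA-MB-231 were detected, whereas of 14 immune markers 13 averaged under 1 CPM (the read count scaled to library size) and 6 were at 0, and 7 of 11 lung epithelial markers, including the surfactant genes SFTPC and SFTPD, were at 0. The lung lineage factor NKX2-1 was expressed, at 25.7 to 28.0 CPM in shACSL5+PA against 36.2 to 37.6 CPM in shACSL5, and 36.2 to 40.9 CPM in shControl+PA against 42.7 to 44.7 CPM in shControl, and the 11 lung markers summed to between 27.5 and 46.9 CPM per library.

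Calls were made by edgeR's quasi-likelihood test, at a p under 0.05 after Benjamini-Hochberg adjustment over 14706 genes, and adjusted p-values are those of this test unless another is named. The interaction was called for 2139 genes, 14.5% of those tested, of which 1052 (7.15%) lay above 0 and 1087 (7.39%) below it. The counts given for gene lists below are to be read against these shares. The differences were mostly small: the median absolute value of the called genes was 0.32, a 1.25-fold difference of responses, and 111 genes (0.755%) passed 2-fold, 78 above and 33 below 0. With library sizes alone in place of TMM scaling, 59.9% of the calls lay above 0, against 49.2%. Palmitate itself changed 3216 genes (21.9%) in shACSL5 cells and 4217 genes (28.7%) in shControl cells. These comparisons share no library: 1532 genes were called in both, 47.6% of the shACSL5 calls and 36.3% of the shControl calls, 1306 of them in the same direction and 226 in opposite directions. Across the 14706 genes the responses correlated with r = 0.326, a description over genes that share libraries and are not replicates.

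**Figure D1:**
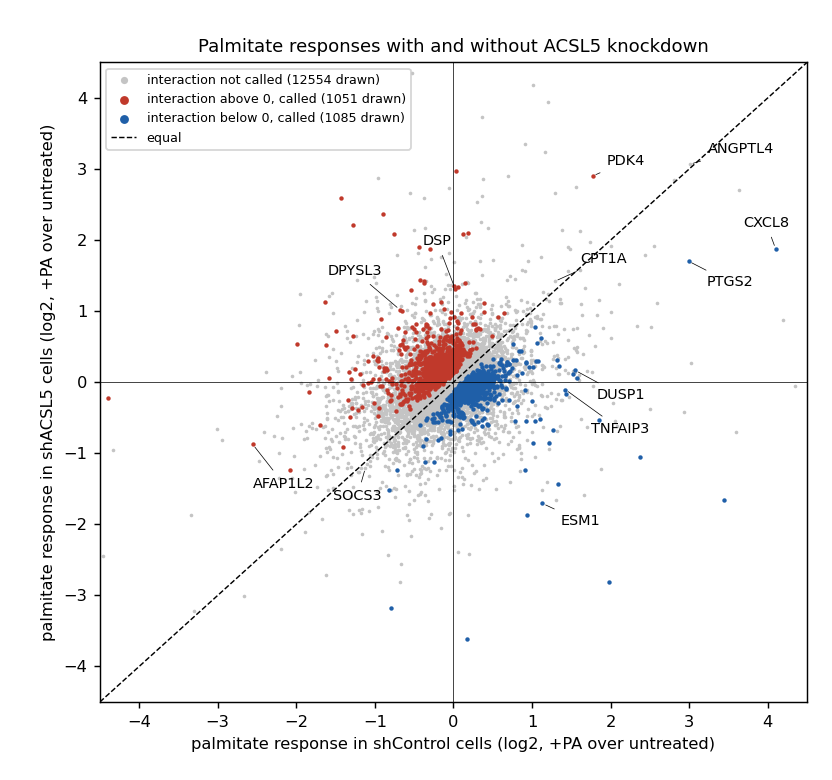
Each point is 1 of the 14706 tested genes, placed by its log2 palmitate response in shControl cells (x axis) and in shACSL5 cells (y axis), each a mean over 3 libraries per group; 16 genes lie beyond the axes. Red and blue points have a called interaction above and below 0, and the dashed line marks equal responses: CXCL8, PTGS2, DUSP1, TNFAIP3 and ESM1 lie below it, DSP, DPYSL3, AFAP1L2 and PDK4 above it, and ANGPTL4, CPT1A and SOCS3 close to it.

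The called interactions had several forms. The most frequent, in 615 genes, was a palmitate rise called in shControl cells and not in shACSL5 cells, and in 402 genes a fall was called in shControl cells alone. A rise called in shACSL5 cells alone was seen in 388 genes, and a fall in 223. Opposite called responses made up 115 genes that rose in shACSL5 and fell in shControl cells, and 111 that did the reverse. Where both were called in the same direction, a rise was smaller in shACSL5 cells for 70 genes and larger for 29, and a fall was smaller for 43 and larger for 24. In 119 genes neither response was called on its own. Seen from the knockdown, whose contrasts share all 12 libraries with the interaction, the shACSL5-minus-shControl difference was nearer to 0 with palmitate, at the same sign, for 1712 of the 2139 called genes, and for 60.5% of all tested genes. Over all tested genes the standard deviation of the knockdown log2 difference was 0.57 with palmitate and 0.72 without, a ratio of 0.794, and 7432 genes (50.5%) were called for the knockdown with palmitate against 9164 (62.3%) without.

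**Figure D2:**
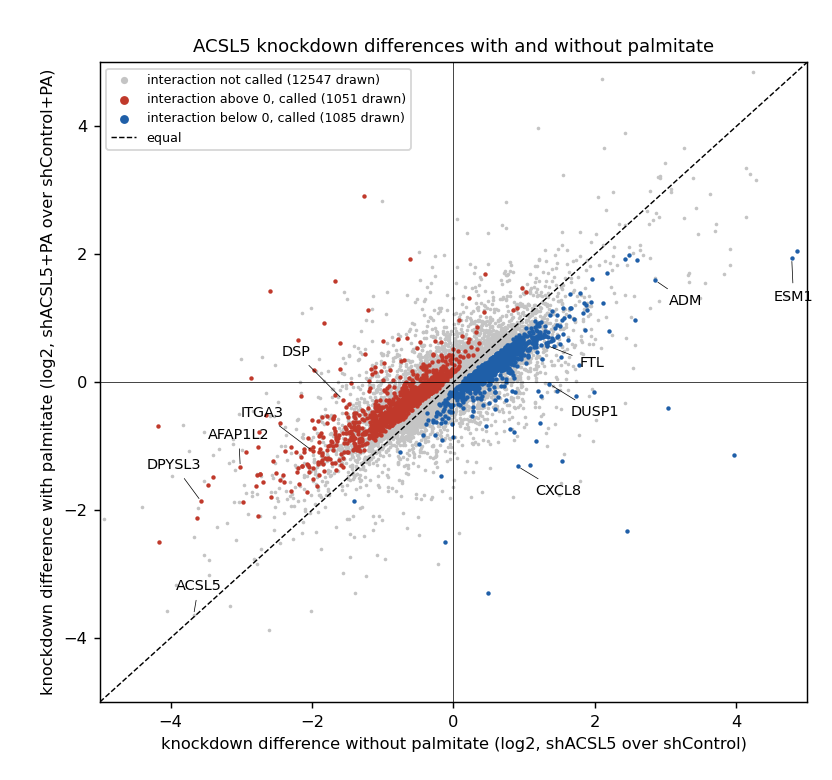
Each point is 1 of the 14706 tested genes, placed by its log2 knockdown difference without palmitate (x axis) and with palmitate (y axis), from 3 libraries per group; 23 genes lie beyond the axes. Called interactions (red above 0, blue below 0) fall mostly between the dashed line of equal differences and the horizontal zero line, while ACSL5 lies on the dashed line at -3.65 with palmitate and -3.67 without.

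Inflammatory genes that NF-kB induces had some of the most negative interactions. CXCL8 encodes the neutrophil chemokine interleukin 8, and had 12.5, 12.5 and 10.1 CPM in shACSL5+PA against 3.21, 3.02 and 3.32 CPM in shACSL5, and 30.3, 28.0 and 29.3 CPM in shControl+PA against 1.595, 1.32 and 2.16 CPM in shControl. It rose in both cell types, but the treated knockdown libraries stayed below every treated control library although the untreated ones lay above. The response was 1.88 (SE 0.13) in shACSL5 and 4.10 (SE 0.14) in shControl cells, a difference of -2.22 (SE 0.21, adjusted p = 2.96e-07). PTGS2, the prostaglandin synthase COX-2, had 20.4, 20.1 and 17.3 CPM in shACSL5+PA against 5.82, 6.51 and 5.48 CPM in shACSL5, and 56.1, 53.2 and 51.2 CPM in shControl+PA against 6.84, 6.92 and 6.42 CPM in shControl. Its untreated groups overlapped, and its difference of responses was -1.29 (SE 0.14, adjusted p = 1.47e-06).

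TNFAIP3 (A20) and NFKBIA (IkB-alpha) are feedback inhibitors of NF-kB that NF-kB itself induces. TNFAIP3 had 6.86, 8.19 and 9.03 CPM in shACSL5+PA against 9.76, 8.35 and 7.65 CPM in shACSL5, and 12.7, 14.2 and 13.1 CPM in shControl+PA against 4.96, 6.09 and 3.84 CPM in shControl, so that the shACSL5 groups overlapped while the shControl groups did not. Its interaction was -1.53 (SE 0.21, adjusted p = 3.00e-05). NFKBIA had 44.7, 42.2 and 44.8 CPM in shACSL5+PA against 36.2, 39.6 and 37.9 CPM in shACSL5, and 64.1, 61.7 and 65.0 CPM in shControl+PA against 32.9, 30.1 and 31.4 CPM in shControl, higher with palmitate in both cell types by 0.21 (SE 0.06) in shACSL5 and 1.02 (SE 0.06) in shControl cells. Its interaction was -0.80 (SE 0.08, adjusted p = 6.45e-07). The promoters of this pair and of CXCL8, each with a match to a motif searched for, are printed. They are the 250 bases before the RefSeq start site (GRCh38.p14), 5′ to 3′ on the gene's strand. Capitals mark matches to the kappa B motif in TNFAIP3 (chr6:137867009-137867258, plus strand) and NFKBIA (chr14:35404750-35404999, minus strand), and to the AP-1 motif TGANTCA in CXCL8 (chr4:73740319-73740568, plus strand).
TNFAIP3: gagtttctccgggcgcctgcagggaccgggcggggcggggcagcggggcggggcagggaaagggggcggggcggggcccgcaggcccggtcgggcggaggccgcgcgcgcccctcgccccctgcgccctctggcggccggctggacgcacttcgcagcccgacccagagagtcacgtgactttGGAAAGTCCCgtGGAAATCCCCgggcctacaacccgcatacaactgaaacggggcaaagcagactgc
NFKBIA: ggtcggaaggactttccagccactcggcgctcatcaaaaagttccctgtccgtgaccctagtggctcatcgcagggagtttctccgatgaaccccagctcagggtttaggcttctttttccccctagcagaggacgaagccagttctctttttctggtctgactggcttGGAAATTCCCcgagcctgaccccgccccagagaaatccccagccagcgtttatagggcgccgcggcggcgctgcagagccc
CXCL8: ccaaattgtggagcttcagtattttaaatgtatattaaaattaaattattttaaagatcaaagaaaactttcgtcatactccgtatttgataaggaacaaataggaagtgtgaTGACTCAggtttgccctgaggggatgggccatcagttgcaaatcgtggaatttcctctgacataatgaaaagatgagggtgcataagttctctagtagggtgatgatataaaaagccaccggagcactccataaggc
Both strands were searched in windows of 250 bases before to 50 after the start. CXCL8 had no kappa B match there, and PTGS2 had neither a kappa B nor an AP-1 match. Only exact matches to the motif searched for were counted. A gene without a match may therefore still hold a variant kappa B site. The kappa B motif stood in 7.42% of the windows of genes called above 0, 7.50% of those called below 0 and 6.64% of those of all tested genes. The AP-1 motif stood in 6.68%, 5.58% and 5.49% in the same order, so neither the kappa B nor the AP-1 share set the called genes far apart from the tested ones, and a match is a string of letters, not a binding site.

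Few of the other NF-kB genes followed. Of 28 measured members of the NF-kB and cytokine list, the 4 above were the ones called below 0, and 2 were called above 0, against 14.5% of all tested genes called. The list's median was -0.15, against 0.01 over all tested genes. The 2 above 0 were IL11, a cytokine of the interleukin 6 family known from breast cancer metastasis to bone (0.55, SE 0.12), and TNFAIP2 (0.44, SE 0.10), both named after their values were seen. IL11 rose in both cell types, by 0.82 in shACSL5 and 0.27 in shControl cells. Interleukin 6 (IL6) was low, with 0.784, 0.253 and 0.591 CPM in shACSL5+PA against 0.641, 0.474 and 0.475 CPM in shACSL5, and 0.601, 0.506 and 0.545 CPM in shControl+PA against 1.20, 1.10 and 0.737 CPM in shControl, and its interaction of 0.89 had a 95% interval of -0.63 to 2.41. SOCS3, the feedback inhibitor of cytokine receptors, fell by nearly the same amount in both cell types (-1.20 (SE 0.05) in shACSL5, -1.12 (SE 0.06) in shControl), with an interaction of -0.08 (SE 0.08, adjusted p = 0.547) and a 95% interval of -0.27 to 0.10.

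Genes that feed back on growth factor signalling went both ways. Of 20 measured MAPK feedback genes, 4 were called above 0 and 5 below, with a median of -0.04, and the count below 0 was 3 without shControl+PA replicate 2, shControl+PA replicate 3 or shACSL5+PA replicate 1. Those above 0 were PHLDA1 (0.26, SE 0.03), ERRFI1 (0.24, SE 0.03), DUSP5 (0.23, SE 0.06) and DUSP4 (0.13, SE 0.04). DUSP1, the phosphatase that switches off the stress kinases p38 and JNK, had 102, 106 and 107 CPM in shACSL5+PA against 96.0, 92.0 and 93.1 CPM in shACSL5, and 108, 109 and 105 CPM in shControl+PA against 34.8, 38.8 and 36.5 CPM in shControl. Without palmitate it was far above control in the knockdown, and with palmitate the groups overlapped. Its interaction was -1.38 (SE 0.06, adjusted p = 3.84e-12), the smallest p of all tested genes. Its promoter is shown as the same 250-base stretch (chr5:172771196-172771445, minus strand), with capitals at the cyclic AMP response element TGACGTCA, which stood in 2.00% of windows of genes called above 0, 3.51% of those below 0 and 2.80% of those of all tested genes.
DUSP1: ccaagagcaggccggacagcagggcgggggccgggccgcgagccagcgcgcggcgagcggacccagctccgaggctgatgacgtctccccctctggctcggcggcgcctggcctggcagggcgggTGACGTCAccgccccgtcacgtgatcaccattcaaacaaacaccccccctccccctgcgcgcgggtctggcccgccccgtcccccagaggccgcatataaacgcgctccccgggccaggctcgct
EGR1, an immediate early transcription factor, had 107, 112 and 118 CPM in shACSL5+PA against 87.3, 86.7 and 98.1 CPM in shACSL5, and 145, 152 and 152 CPM in shControl+PA against 63.2, 56.9 and 60.7 CPM in shControl and an interaction of -1.01 (SE 0.07, adjusted p = 5.96e-09). Among 31 measured AP-1 and immediate early genes, 6 were called below 0 and 4 above, with a median of -0.07. CSRNP1 (-0.49, SE 0.08) and JUND (-0.36, SE 0.09) lay below 0 with a rise called in shControl cells alone. BHLHE40, a transcriptional repressor of the circadian and hypoxia systems, ran the other way, with 35.9, 35.3 and 39.7 CPM in shACSL5+PA against 21.6, 20.8 and 20.9 CPM in shACSL5, and 78.7, 80.0 and 77.3 CPM in shControl+PA against 95.3, 101 and 102 CPM in shControl. It rose in the knockdown and fell in the control, and its interaction was 1.14 (SE 0.08, adjusted p = 1.76e-09). The EGFR ligand epiregulin (EREG) fell in shACSL5 and rose in shControl cells, with responses of -0.20 and 0.26 and an interaction of -0.46 (SE 0.07).

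Several stress genes of the ER and of the ATF4 pathway rose less with palmitate in the knockdown. Of 30 measured ER chaperone and unfolded protein response genes, 9 were called below 0 and none above, with a median of -0.08. Over the alternatives 7 to 10 were called below 0 and up to 2 above. HSPA5 (BiP), the master ER chaperone, had 1107, 1111 and 1112 CPM in shACSL5+PA against 887, 874 and 889 CPM in shACSL5, and 1439, 1409 and 1393 CPM in shControl+PA against 919.6, 942 and 937 CPM in shControl, a response of 0.33 (SE 0.02) in shACSL5 and 0.60 (SE 0.02) in shControl cells and an interaction of -0.27 (SE 0.03, adjusted p = 3.93e-06). The interaction was -0.31 (SE 0.03) for the lectin chaperone calnexin (CANX) and -0.43 (SE 0.07) for HERPUD1, a factor of ER-associated degradation. Of 33 measured ATF4 pathway genes, 9 were called below 0 and 3 above (median -0.12). PPP1R15A (GADD34), which restores translation after stress, had 199.5, 197 and 206 CPM in shACSL5+PA against 164, 163 and 169.6 CPM in shACSL5, and 150.1, 154 and 147 CPM in shControl+PA against 73.4, 82.4 and 82.3 CPM in shControl and an interaction of -0.64 (SE 0.06, adjusted p = 2.59e-07). Its untreated level in the knockdown was 2.08-fold that of shControl.

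Within the ATF4 pathway the members split. Its stress transcription factors lay below 0: ATF3 at -0.66 (SE 0.16) and DDIT3 (CHOP), the factor tied to ER-stress death, at -0.78 (SE 0.20). For DDIT3, 39.6% of exon bases overlap other genes, mostly on the opposite strand, and reads cannot be assigned between them without strand. The amino acid transporter chain SLC3A2 (-0.39, SE 0.05) and the proline enzyme PYCR1 (-0.38, SE 0.07) lay there too. Above 0 were the lipoprotein receptor VLDLR (0.46, SE 0.10), the mTOR inhibitor DDIT4 (0.34, SE 0.08) and asparagine synthetase ASNS (0.20, SE 0.05), named after their values were seen, all of which rose in both cell types and more so, on the log2 scale, in the knockdown. On the additive CPM scale the rises of DDIT4 and ASNS were smaller in the knockdown, and their overlapping exon shares were 41.2% and 44.6%. TRIB3, a pseudokinase target of the pathway, had an interaction of -0.13 (SE 0.13, adjusted p = 0.549) with a 95% interval of -0.43 to 0.16.

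Cytosolic and mitochondrial chaperones showed the same sign as the ER ones: 8 of 25 heat shock genes were called below 0, none above, with a median of -0.13. The constitutive chaperone HSPA8 had 2616, 2647 and 2631 CPM in shACSL5+PA against 2472, 2529.6 and 2513 CPM in shACSL5, and 2433, 2415 and 2445 CPM in shControl+PA against 1912, 1970.3 and 1977 CPM in shControl and an interaction of -0.24 (SE 0.03). The mitochondrial chaperones HSPD1 (HSP60) and HSPA9 had interactions of -0.24 (SE 0.04) and -0.25 (SE 0.03). HSPD1 rose with palmitate in both cell types, while the rise of HSPA9 was called in shControl cells alone.

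Antioxidant and iron storage genes, many of them targets of NRF2, gave some of the strongest statistical differences. FTL, the light chain of the iron store ferritin, had 1352, 1363 and 1432 CPM in shACSL5+PA against 1283, 1242 and 1280.2 CPM in shACSL5, and 927, 924 and 932 CPM in shControl+PA against 499, 503 and 524 CPM in shControl. All 6 knockdown libraries lay above all 6 control libraries, and palmitate raised the control far more, so that the interaction was -0.74 (SE 0.04, adjusted p = 8.39e-12). SQSTM1, the autophagy receptor p62, had 592, 590.1 and 616 CPM in shACSL5+PA against 487, 472 and 504 CPM in shACSL5, and 677, 674 and 651 CPM in shControl+PA against 315, 327 and 329 CPM in shControl. It was above control in the untreated knockdown and below it among treated libraries, and its interaction was -0.75 (SE 0.04, adjusted p = 7.61e-11). Of its exon bases, 22.04% overlap genes on the opposite strand.

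Of 25 measured NRF2 targets, 9 were called below 0 and 2 above, with a median of -0.15. Thioredoxin reductase TXNRD1 rose by 0.09 in shACSL5 and 0.57 in shControl cells (interaction -0.47, SE 0.04). The quinone reductase NQO1 rose in shControl cells alone, with 381, 368 and 371 CPM in shACSL5+PA against 369, 360.2 and 360.3 CPM in shACSL5, and 548, 559 and 561 CPM in shControl+PA against 402, 412 and 410.1 CPM in shControl. Its interaction was -0.41 (SE 0.04). The 2 subunits of the enzyme that starts glutathione synthesis parted: the catalytic GCLC lay at -0.36 (SE 0.08) and the modifier GCLM at 0.21 (SE 0.07). The call of GCLM and that of malic enzyme ME1 (0.30, SE 0.10), the other member above 0, were lost without some single libraries, with adjusted p up to 0.119 and 0.117 over the alternatives. The ferritin heavy chain FTH1 had an interaction of -0.45 (SE 0.04), with 62.4% of its exon bases shared with BEST1 on the opposite strand.

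**Figure D3:**
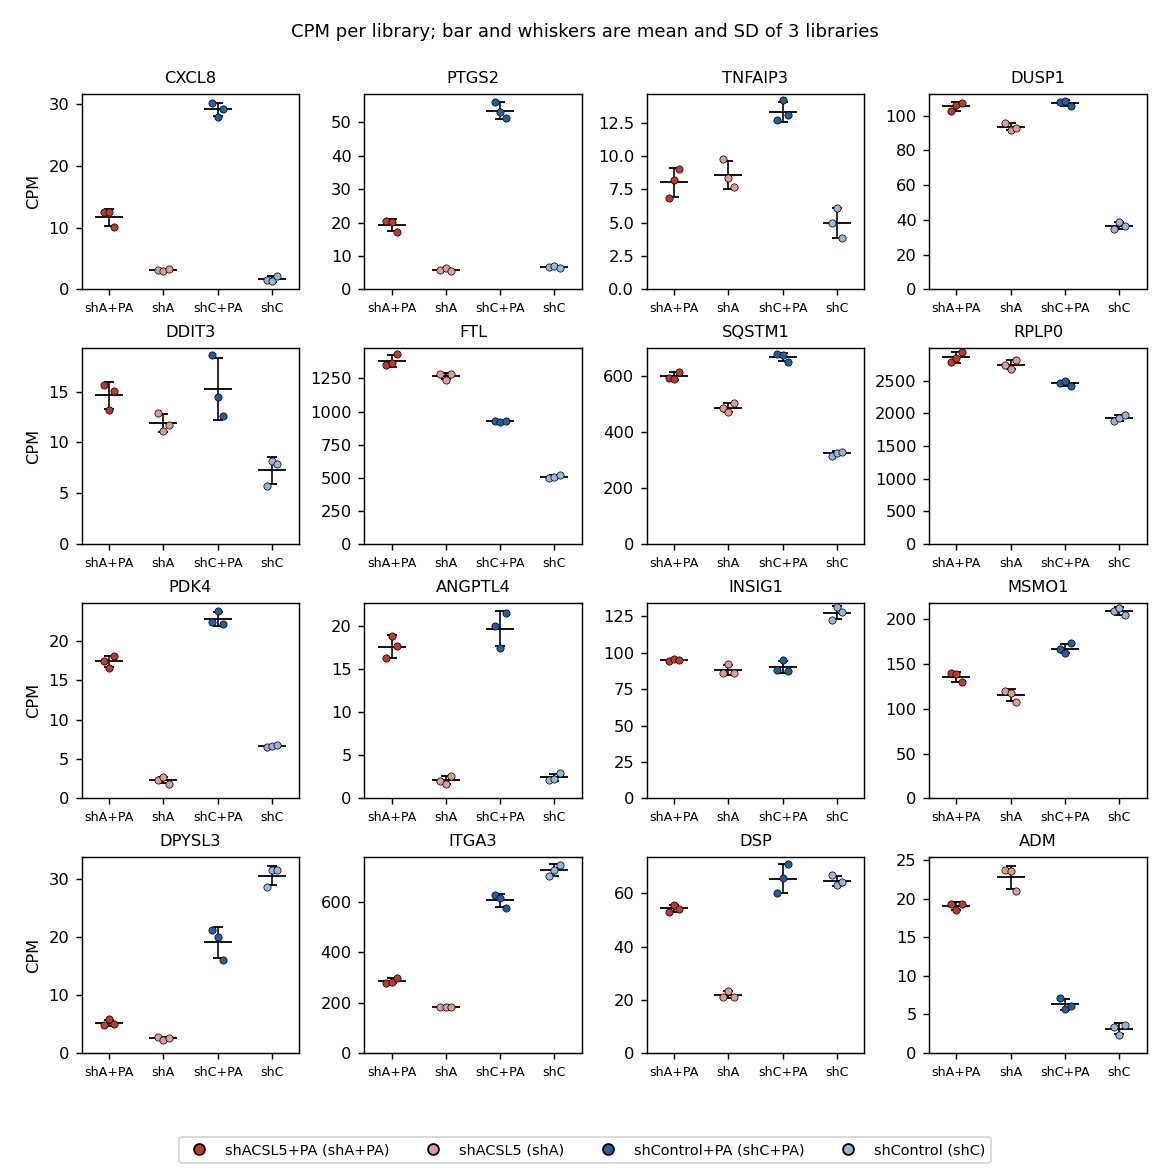
CPM in each library (points), with the mean and SD of 3 libraries, for 16 genes in the shACSL5+PA, shACSL5, shControl+PA and shControl groups; every axis starts at 0 and has its own scale. CXCL8, PTGS2, TNFAIP3, DUSP1, FTL and SQSTM1 rise more in shControl cells, PDK4 and DSP rise by more log2 units in shACSL5 cells, MSMO1, DPYSL3 and ITGA3 rise in shACSL5 and fall in shControl cells, and ANGPTL4 rises in both with no called difference.

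Ribosomal protein genes rose with palmitate in shControl cells, and few of them did in the knockdown. Of 46 cytosolic ribosomal protein genes, palmitate was called higher in 4 and lower in 2 in shACSL5 cells, against 45 higher and none lower in shControl cells. Over all tested genes the shares called higher and lower were 12.1% and 9.78% in shACSL5 cells, against 15.1% and 13.5% in shControl cells. The interaction was called below 0 for 37 of the 46 and above 0 for none, and all 46 values were below 0, with a median of -0.17 that stayed between -0.21 and -0.15 over the 19 alternatives. RPLP0, a protein of the ribosomal stalk, had 2781, 2841 and 2943 CPM in shACSL5+PA against 2744, 2669.6 and 2812 CPM in shACSL5, and 2460.1, 2498 and 2416 CPM in shControl+PA against 1882, 1929 and 1976 CPM in shControl and an interaction of -0.29 (SE 0.03, adjusted p = 4.63e-06). RPL12 fell in shACSL5 cells, with a response of -0.16, and rose in shControl cells, with 0.17. Together the 46 genes made up a median of 44590 CPM in shACSL5+PA against 43580 in shACSL5, and 40800 in shControl+PA against 35580 in shControl.

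Ribosome assembly showed the same pattern at the level of single genes. Of 38 measured ribosome biogenesis genes, 19 were called below 0 and none above (median -0.20), and palmitate was called higher in 7 and lower in 2 in shACSL5 cells against 28 higher and none lower in shControl cells. The nucleolar proteins NOP56, which guides rRNA methylation, PES1 and BOP1, which process the large subunit, were all called below 0, with interactions of -0.40 (SE 0.04), -0.41 (SE 0.05) and -0.43 (SE 0.06) in that order. NPM1, the abundant nucleolar chaperone nucleophosmin, had 2104, 2081 and 2026 CPM in shACSL5+PA against 2089.8, 2105 and 1995 CPM in shACSL5, and 2234, 2225 and 2289.7 CPM in shControl+PA against 1858, 1887 and 1869 CPM in shControl and an interaction of -0.26 (SE 0.03). Its treated knockdown libraries lay below the treated controls, unlike most of the list. Without palmitate 35 of the 38 were called higher in the knockdown than in shControl cells and 2 lower. With palmitate 31 were called higher and 3 lower. Over all 14706 tested genes, 4363 were called higher and 4801 lower without palmitate, and 3591 and 3841 with it. Of 20 aminoacyl-tRNA synthetases, which load tRNAs, 6 were called below 0, with FARSA at -0.32 (SE 0.06).

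DNA replication genes lay on the same side. Of 45 S phase genes, 16 were called below 0 and none above (median -0.15). Palmitate was called higher in 3 and lower in 9 of them in shACSL5 cells, against 18 higher and 1 lower in shControl cells. The shares over all tested genes were 12.1% and 9.78% in shACSL5 cells, and 15.1% and 13.5% in shControl cells. The replicative helicase subunit MCM5 had 204, 222 and 230.1 CPM in shACSL5+PA against 241, 236 and 246 CPM in shACSL5, and 195, 196 and 201 CPM in shControl+PA against 174, 177 and 180.1 CPM in shControl and an interaction of -0.30 (SE 0.05). The flap endonuclease FEN1 lay at -0.29 (SE 0.05) and the cell cycle phosphatase CDC25A at -0.36 (SE 0.07). Of 40 G2/M genes 4 (10.0%) were called below 0, against 7.39% of all tested genes. The count was 7 with DESeq2 or the stricter filter, a mean of at least 100 counts. Among the 4 was the mitotic kinase AURKB (-0.32, SE 0.06). The median of the 40 was 0.00, near that of all genes. Transcripts without a long poly(A) tail moved between the groups as well: the 15 canonical histone genes in the table summed to a median of 384.8 CPM in shACSL5+PA against 359.4 in shACSL5, and 408.8 in shControl+PA against 488.8 in shControl. Their part in the results on ribosomal and replication genes was not tested.

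**Figure D4:**
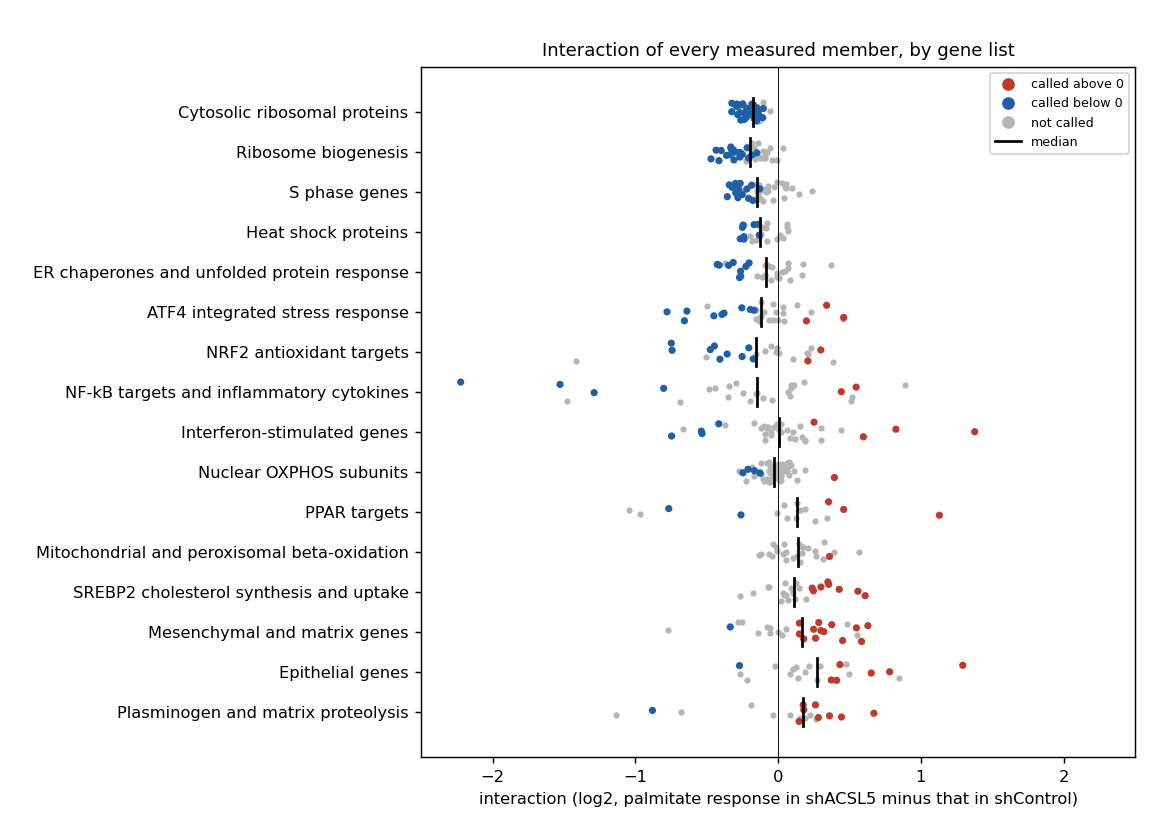
Interaction (log2, palmitate response in shACSL5 less that in shControl) of every measured member of 16 gene lists; red and blue points were called above and below 0, grey points were not called, and the black bar is the median of the list. Ribosomal, nucleolar, S phase and chaperone lists have called members only below 0, the SREBP2 list only above 0, and the NF-kB, interferon and PPAR lists on both sides.

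Genes that fatty acids induce through PPARs gave mixed results. ANGPTL4, the secreted lipase inhibitor that is a classic PPAR target, had 16.3, 18.9 and 17.7 CPM in shACSL5+PA against 2.02, 1.66 and 2.58 CPM in shACSL5, and 20, 17.5 and 21.5 CPM in shControl+PA against 2.11, 2.25 and 2.95 CPM in shControl. It rose in both cell types, with an interaction of 0.06 (SE 0.23, adjusted p = 0.901) and a 95% interval of -0.46 to 0.58. CPT1A, which admits fatty acids into mitochondria, had 127, 131 and 137 CPM in shACSL5+PA against 48.4, 46.9 and 52.6 CPM in shACSL5, and 126, 131 and 125 CPM in shControl+PA against 48.9, 54.7 and 52.8 CPM in shControl, an interaction of 0.13 (SE 0.07, adjusted p = 0.246) and a 95% interval of -0.03 to 0.30. PDK4, the kinase that spares glucose by blocking pyruvate dehydrogenase, had 17.5, 16.6 and 18.1 CPM in shACSL5+PA against 2.38, 2.72 and 1.90 CPM in shACSL5, and 22.5, 23.8 and 22.2 CPM in shControl+PA against 6.55, 6.64 and 6.84 CPM in shControl. Its untreated level was lower in the knockdown and its rise larger on the log2 scale (2.90 (SE 0.12) in shACSL5, 1.77 (SE 0.10) in shControl), giving an interaction of 1.13 (SE 0.17, adjusted p = 6.55e-05). On the additive scale the rise was 1.05 CPM smaller in the knockdown. The additive and the log2 sign differed for 6 of the 2139 called genes, all of them above 0 on the log2 scale.

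Of 16 measured PPAR targets, 3 were called above 0 and 2 below. The thiolase ACAA2, an enzyme of mitochondrial beta-oxidation, rose by 0.92 in shACSL5 and 0.56 in shControl cells (interaction 0.35, SE 0.08). It was the one called gene among 26 measured beta-oxidation genes, 3.85% against 14.5% of all tested genes. A second was called above 0 with library sizes alone, the stricter filter or the replicate block, and without shControl replicate 3, shControl+PA replicate 2, shACSL5 replicate 1 or shACSL5 replicate 3. PLIN2, the coat protein of lipid droplets, had 98.2, 98.9 and 102 CPM in shACSL5+PA against 56.1, 57.9 and 60.7 CPM in shACSL5, and 88.2, 88.0 and 90.3 CPM in shControl+PA against 40.0, 45.7 and 44.4 CPM in shControl and an interaction of -0.26 (SE 0.07, adjusted p = 0.0152). Without shControl replicate 1 its interaction was -0.21, with an adjusted p of 0.0541. TXNIP, which restrains glucose uptake, had 43.9, 42.6 and 41.8 CPM in shACSL5+PA against 42.2, 48.0 and 47.4 CPM in shACSL5, and 29.1, 25.3 and 23.7 CPM in shControl+PA against 16.5, 16.3 and 16.3 CPM in shControl, with a rise called in shControl cells alone and an interaction of -0.77 (SE 0.11, adjusted p = 3.61e-05). G0S2, the inhibitor of the lipase that empties lipid droplets, rose by 0.21 in shACSL5 and 0.97 in shControl cells (interaction -0.75, SE 0.10).

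Sterol synthesis genes included members that fell with palmitate in shControl cells and did not in the knockdown. Of 24 measured SREBP2 targets, 8 were called above 0 and none below, with a median of 0.11. Palmitate was called higher in 9 and lower in none in shACSL5 cells, against 3 higher and 6 lower in shControl cells. All tested genes had shares of 12.1% higher and 9.78% lower in shACSL5 cells, and 15.1% and 13.5% in shControl cells. INSIG1, the ER anchor that holds SREBP back, had 94.5, 95.8 and 94.8 CPM in shACSL5+PA against 86.2, 92.0 and 86.0 CPM in shACSL5, and 88.1, 94.8 and 87.4 CPM in shControl+PA against 123, 132 and 128 CPM in shControl. The untreated knockdown lay as low as the treated control, and the interaction was 0.61 (SE 0.06, adjusted p = 7.59e-07). The sterol demethylation enzyme MSMO1 had 139.8, 139 and 129.6 CPM in shACSL5+PA against 119.7, 118 and 108 CPM in shACSL5, and 166, 162 and 173 CPM in shControl+PA against 209.6, 213 and 205 CPM in shControl, with a rise in shACSL5 cells, a fall in shControl cells and an interaction of 0.56 (SE 0.06, adjusted p = 1.48e-06).

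Earlier enzymes of the pathway had smaller differences of the same sign. HMGCS1, which makes HMG-CoA, lay at 0.35 (SE 0.06) and squalene synthase FDFT1 at 0.35 (SE 0.04). The sterol response element TCACNCCAC stood in 1.19% of promoter windows of genes called above 0, 0.478% of those below 0 and 1.05% of those of all tested genes. The windows of HMGCS1, MSMO1 and INSIG1, and those of the list members IDI1 and LSS, held no match to it. SCD, the desaturase that turns palmitate-derived saturated chains into monounsaturated ones, had 1078, 1064 and 1087 CPM in shACSL5+PA against 896, 904 and 914 CPM in shACSL5, and 1212, 1193 and 1215 CPM in shControl+PA against 1251, 1276 and 1283 CPM in shControl. It rose in the knockdown and fell in the control, with an interaction of 0.32 (SE 0.03, adjusted p = 2.96e-07), and was 1 of 4 called above 0 among 20 measured fatty acid synthesis genes. The others were ATP citrate lyase ACLY (0.14, SE 0.04), ACACB (0.49, SE 0.16) and ME1, and FADS1 (-0.22, SE 0.06) was called below. Without shControl replicate 1, shACSL5 replicate 3 or shACSL5+PA replicate 2 the count above 0 was 2.

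Among 19 measured acyl-CoA synthetases and uptake genes, 4 were called above 0 and none below. They were the acetyl-CoA synthetase ACSS2 (0.57, SE 0.11), ACSF2 (0.77, SE 0.17), the droplet-associated ACSL3 (0.29, SE 0.07) and the transporter SLC27A1 (0.45, SE 0.12). ACSL3 had 140.2, 153 and 140.4 CPM in shACSL5+PA against 125, 124 and 109 CPM in shACSL5, and 178, 171 and 171 CPM in shControl+PA against 183, 175 and 167 CPM in shControl, and its rise was called in shACSL5 cells alone. ACSL1 had an interaction of -0.02 (SE 0.09, adjusted p = 0.923) with a 95% interval of -0.22 to 0.18. ACSL4, which prefers arachidonic acid, lay at 0.14 (SE 0.06, adjusted p = 0.112) with a 95% interval of 0.01 to 0.28. Without shControl+PA replicate 2 it passed, at an adjusted p of 0.0413.

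Several adhesion, matrix and cytoskeleton genes that were low in the knockdown had interactions above 0. ITGA3, the laminin-binding integrin alpha 3, had 279, 283 and 299 CPM in shACSL5+PA against 184, 181 and 184 CPM in shACSL5, and 625, 617 and 575 CPM in shControl+PA against 701, 728 and 747 CPM in shControl. The 4 groups did not overlap, and the gene rose in shACSL5 and fell in shControl cells, with an interaction of 0.91 (SE 0.05, adjusted p = 3.49e-11). DSP, the desmosomal plaque protein desmoplakin, had 53.1, 55.6 and 54.2 CPM in shACSL5+PA against 21.2, 23.3 and 21.1 CPM in shACSL5, and 60.0, 65.6 and 71.0 CPM in shControl+PA against 66.7, 63.0 and 64.1 CPM in shControl, a rise in the knockdown to near the control, whose own groups overlapped. Its interaction was 1.29 (SE 0.09, adjusted p = 1.76e-09). DPYSL3, a collapsin response protein of the cytoskeleton, had 4.90, 5.81 and 5.00 CPM in shACSL5+PA against 2.75, 2.31 and 2.64 CPM in shACSL5, and 21.2, 19.95 and 16.1 CPM in shControl+PA against 28.7, 31.7 and 31.5 CPM in shControl and an interaction of 1.70 (SE 0.18, adjusted p = 1.42e-06).

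Of 26 measured mesenchymal and matrix genes, 13 were called above 0 and 1 below, with a median of 0.16. They included tenascin C (TNC, 0.63, SE 0.06) and TGFBI (0.58, SE 0.08), which rose in shACSL5 and fell in shControl cells, and collagen COL5A1 (0.55, SE 0.10), which fell in both. The 1 below 0 was the cadherin CDH11 (-0.33, SE 0.07), whose knockdown difference was -1.09 with palmitate and -0.75 without it, and 2 were below without shACSL5+PA replicate 2. Palmitate itself was called higher in 8 and lower in 8 of the 26 in shACSL5 cells, against 3 higher and 15 lower in shControl cells. Of 21 measured epithelial genes, 6 were called above 0 and 1 below (median 0.27): besides DSP the desmosomal DSC2 (0.78, SE 0.15) and DSG2 (0.41, SE 0.06), plakoglobin JUP (0.43, SE 0.08), KRT8 (0.37, SE 0.06) and occludin OCLN (0.65, SE 0.16) were above, and KRT7 (-0.27, SE 0.06) was below. Palmitate was called higher in 6 and lower in 4 of these 21 in shACSL5 cells, against none higher and 9 lower in shControl cells. Beside both lists, all tested genes had 12.1% called higher and 9.78% lower in shACSL5 cells, and 15.1% and 13.5% in shControl cells.

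Of 29 measured actomyosin and SRF targets, 8 were called above 0 and 3 below. The non-muscle myosin heavy chain MYH10 had 12.0, 15.8 and 12.95 CPM in shACSL5+PA against 8.98, 12.0 and 10.1 CPM in shACSL5, and 38.5, 37.1 and 35.3 CPM in shControl+PA against 52.1, 53.2 and 57.8 CPM in shControl and an interaction of 0.96 (SE 0.14, adjusted p = 5.29e-05). The myosin light chain MYL12A (0.39, SE 0.05) was also above 0, whereas the focal adhesion proteins zyxin (ZYX, -0.31, SE 0.06) and alpha-actinin 1 (ACTN1, -0.25, SE 0.05) were below. Of 18 measured genes of the plasminogen and matrix protease system, 8 were called above 0 and 1, ADAMTS1, below. Without shControl+PA replicate 1 the count above 0 was 4. TIMP3, an inhibitor of matrix metalloproteases, had a response of -0.16 in shACSL5 and -0.83 in shControl cells, where its fall was called, and an interaction of 0.67 (SE 0.09). Among the 18 measured genes of the MDA-MB-231 lung metastasis signature, 3 were called above 0 and 5 below, with PTGS2, ID3 and EREG on the lower and TNC on the upper side.

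Some secreted factors that were higher in the untreated knockdown had interactions below 0. Angiogenic secreted factors as a list were divided: of 19 measured, 3 were called on each side, with a median of 0.09. PDGFD (0.71, SE 0.19), PDGFA (0.67, SE 0.13) and the receptor NRP1 (0.20, SE 0.04) lay above 0, and PGF (-0.36, SE 0.09), ESM1 and ADM below. ESM1, the endothelial proteoglycan endocan, had 2.94, 3.18 and 3.28 CPM in shACSL5+PA against 9.76, 10.3 and 10.7 CPM in shACSL5, and 0.601, 0.956 and 0.872 CPM in shControl+PA against 0.456, 0.274 and 0.368 CPM in shControl. ESM1 fell in shACSL5 and rose in shControl cells, and its interaction was -2.84 (SE 0.37, adjusted p = 1.67e-05). The rise in shControl cells lay between low levels, 0.274 to 0.956 CPM over the shControl and shControl+PA libraries. ADM, the vasodilator peptide adrenomedullin, had 19.4, 18.5 and 19.3 CPM in shACSL5+PA against 23.7, 23.6 and 21.04 CPM in shACSL5, and 7.10, 5.73 and 6.05 CPM in shControl+PA against 3.42, 2.36 and 3.68 CPM in shControl. Its rise was called in shControl cells alone, and its interaction was -1.25 (SE 0.18, adjusted p = 5.32e-05). FST, the activin-binding protein follistatin, had 19.1, 15.5 and 16.8 CPM in shACSL5+PA against 24.5, 25.7 and 27.8 CPM in shACSL5, and 10.2, 9.78 and 9.16 CPM in shControl+PA against 8.09, 7.36 and 6.10 CPM in shControl and an interaction of -1.04 (SE 0.15, adjusted p = 7.77e-05). FSTL1 and the coagulation receptor F3 were also higher in the untreated knockdown, by 0.20 and 1.02, and their interactions lay above 0, at 0.43 (SE 0.06) and 0.39 (SE 0.05).

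Further genes called below 0 were the matrix protease ADAMTS1 (-0.88, SE 0.13), the semaphorin SEMA3E (-0.85, SE 0.14) and the transcription inhibitor ID3 (-0.56, SE 0.07), each of which fell in shACSL5 and rose in shControl cells. CAVIN2, a coat protein of caveolae, fell in both, with responses of -0.79 in shACSL5 and -0.16 in shControl cells and an interaction of -0.63 (SE 0.06, adjusted p = 1.01e-07). The interferon-stimulated genes were split, with 4 of 35 measured called on each side and a median of 0.01. In all, 22.9% of them were called, against 14.5% of all tested genes. IFIT2, an antiviral RNA-binding protein, had 83.7, 84.9 and 72.1 CPM in shACSL5+PA against 117, 124 and 106 CPM in shACSL5, and 90.6, 88.5 and 89.5 CPM in shControl+PA against 81.5, 76.9 and 72.3 CPM in shControl, with a fall in shACSL5 and a rise in shControl cells and an interaction of -0.75 (SE 0.09, adjusted p = 4.19e-06). IFIT1 (-0.53, SE 0.06), IFIT3 (-0.42, SE 0.07) and OASL (-0.54, SE 0.11) were also below 0. Above 0 were the GTPase MX1 (1.38, SE 0.26), UBE2L6 (0.83, SE 0.20), DDX60 (0.60, SE 0.17) and STAT2 (0.25, SE 0.09), the last 2 with adjusted p up to 0.0580 and 0.125 over the alternatives and a count above 0 of 2 without shControl replicate 1.

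Several large positive values came from genes that palmitate lowered in shControl cells. ERBB3, the neuregulin receptor HER3, had 1.47, 2.48 and 2.63 CPM in shACSL5+PA against 1.28, 1.78 and 1.16 CPM in shACSL5, and 3.17, 2.30 and 2.18 CPM in shControl+PA against 6.61, 5.71 and 6.31 CPM in shControl. The shACSL5 groups and the treated control were all low, and its interaction was 1.93 (SE 0.35, adjusted p = 6.12e-04). AFAP1L2, a Src-binding adaptor, had 1.13, 1.42 and 1.67 CPM in shACSL5+PA against 2.15, 1.72 and 3.80 CPM in shACSL5, and 4.32, 3.43 and 2.83 CPM in shControl+PA against 18.9, 21.4 and 22.05 CPM in shControl and an interaction of 1.68 (SE 0.33, adjusted p = 0.00134). The metastasis suppressor tetraspanin CD82 (1.09, SE 0.14) and the adhesion molecule L1CAM (1.05, SE 0.12) had falls called in shControl cells alone. LCP1, the actin-bundling protein L-plastin, had 20.5, 21.1 and 19.4 CPM in shACSL5+PA against 9.39, 11.4 and 7.96 CPM in shACSL5, and 13.1, 12.5 and 12.2 CPM in shControl+PA against 16.1, 14.9 and 14.1 CPM in shControl, a rise in the knockdown and an interaction of 1.35 (SE 0.15, adjusted p = 2.67e-06). The cell cycle inhibitor CDKN1A (p21) rose in both cell types, by 0.82 in shACSL5 and 0.25 in shControl cells, with an interaction of 0.57 (SE 0.09).

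Some large values rest on scattered libraries. RN7SL2 and RN7SL1, the RNA of the signal recognition particle, had the largest positive values among called genes with a mean of at least 5 CPM, 3.27 (SE 0.64) and 2.34 (SE 0.51). RN7SL2 had 25.5, 14.8 and 21.9 CPM in shACSL5+PA against 2.79, 4.20 and 5.12 CPM in shACSL5, and 5.47, 6.58 and 8.61 CPM in shControl+PA against 27.7, 2.53 and 8.47 CPM in shControl, with shControl replicate 1 far above the other two. These are near-identical copies transcribed without a poly(A) tail. A list of such RNAs, this pair included, was made after the data were seen. Its 9 RNAs in the table, 6 of which averaged under 1 CPM, summed to a median of 38.6 CPM in shACSL5+PA against 8.00 in shACSL5, and 16.7 in shControl+PA against 14.5 in shControl, where the libraries ran from 6.09 to 44.2. The sums mostly repeat the pair: shControl replicate 1 had 27.7 CPM of RN7SL2 and 15.7 CPM of RN7SL1. RIOX1, a ribosomal oxygenase, had 2.74, 1.52 and 5.91 CPM in shACSL5+PA against 6.41, 19.7 and 6.22 CPM in shACSL5, and 4.81, 1.63 and 15.8 CPM in shControl+PA against 0, 2.03 and 0 CPM in shControl and the most negative value among the same genes, -5.11 (SE 1.05, adjusted p = 0.00196). Its libraries differed by several fold within each group, and DESeq2 gave an adjusted p of 0.0955. The lung lineage factor NKX2-1 fell in both cell types, with responses of -0.46 in shACSL5 and -0.18 in shControl cells and an interaction of -0.28 (SE 0.09) whose adjusted p reached 0.0987 over the alternatives.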

How the data were processed

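For 12 poly(A) RNA libraries, the authors deposited raw counts of reads per gene. The submitters' processing notes name HISAT2 2.1.0, fastp 0.22.0 and featureCounts, and the build GRCh38. Neither the annotation release nor the strand setting is given in the sources used here, which leaves opposite-strand overlaps unresolved. Of 57730 genes in the table, the 37 mitochondrially encoded ones had no count in any library. Groups came from the sample titles. The 14706 genes passing filterByExpr were fitted as 4 group means with edgeR 4.0.16 (R 4.3.3): TMM scaling, quasi-likelihood test, Benjamini-Hochberg adjustment over all tested genes. Standard errors are the absolute log2 value divided by the square root of F, and 95% intervals use 8 residual degrees of freedom. CPM were computed from the deposited counts with TMM-adjusted library sizes. The test was tried on simulated data with a common dispersion for all genes and changes set in shACSL5+PA alone, unlike the real data. Of 50 genes changed 1.5-fold, the smallest change set, 34 were called in the right direction. Smaller changes, such as the median called difference of 1.25-fold, were not simulated. No 2 libraries of a group were identical, and their counts differed beyond sampling noise.

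Genes were named by rule: ACSL5, the 12 largest called interactions on each side with a mean of at least 5 CPM, the 6 smallest p-values, up to 3 called members of each of 50 lists, and a fixed set. A further 51 genes, mostly list members, were picked after their values were seen, as were DUSP4, DUSP5, NRP1, PDGFD and PGF. The members and lists were chosen with earlier results of these data known. Some genes counted in the totals are not reported by gene. Exon overlap is from GENCODE (GRCh38). RefSeq promoters (GRCh38.p14) matched 851 of the 1052 genes above 0, 868 of the 1087 below 0 and 10763 of the 14706 tested. Alternatives changed scaling, filter, tool (DESeq2 1.42.0, limma-voom with limma 3.58.1) or the replicate block, or left out each library.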

Additional observations from a re-analysis of the deposited data

Results flagged for a closer look

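Palmitate responses that were called in opposite directions in the knockdown and the control were singled out among the genes named, where the interaction itself tested the difference. Genes that rose in shACSL5 and fell in shControl cells had these interactions on the log2 scale: DPYSL3 1.70, CCNA1 1.18, BHLHE40 1.14, MYH10 0.96, ITGA3 0.91, DSC2 0.78, TUBA1A 0.68, PDGFA 0.67, TNC 0.63, S100A10 0.62, TGFBI 0.58, ACSS2 0.57, MSMO1 0.56, COL4A1 0.45, FSTL1 0.43, KLF13 0.40, FDFT1 0.35 and SCD 0.32. Genes that fell in shACSL5 and rose in shControl cells had these: ESM1 -2.84, FST -1.04, ADAMTS1 -0.88, SEMA3E -0.85, IFIT2 -0.75, ADGRF5 -0.62, ID3 -0.56, EREG -0.46, BOP1 -0.43, IFIT3 -0.42, RPL12 -0.32, FARSA -0.32, MCM5 -0.30, FEN1 -0.29, ACTN1 -0.25 and PSMB5 -0.24. The rise of ESM1 lay between low levels, 0.274 to 0.956 CPM over the shControl and shControl+PA libraries. TUBA1A shares 14.3% of its exon bases with TUBA1C, and IFIT2 shares 10.3% with other genes. Groups of 3 libraries are too small for a test of single outlying libraries.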

How the results depend on the processing

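The number of genes called for the interaction was 2139, and stayed within 1.5 times of that under all 19 alternatives: 2140 with DESeq2's size factors, 2224 with library sizes alone, 2246 with no filter on low counts, 2329 with a mean of at least 100 counts, 2131 with DESeq2, 2092 with limma-voom and 1657 to 2138 without single libraries. The share above 0 was 43.7% with DESeq2's size factors and 59.9% with library sizes alone, against 49.2% with TMM. No pairing of libraries by replicate number was seen, though a weak one could go unseen with 3 libraries per group. Same-numbered libraries of different groups deviated with r between -0.04 and 0.08, none over 0.1, and other pairs with -0.08 to 0.08. With the replicate block 2261 genes were called, 1115 above and 1146 below 0. Of 180 named genes called for the interaction, 155 kept the call under every alternative and 5 more (ERBB3, ESM1, ILDR2, KRT81 and MX1) under every one but the stricter filter, which removed them; none changed sign. The 20 that lost it somewhere were ACACB, BCL2L2, BNIP3, CTD-3232M19.2, DDX60, FADS1, FILIP1L, FOSL1, GCLM, HBEGF, LPCAT3, ME1, NKX2-1, NR1D1, PLIN2, PSMC5, RIOX1, STAT2, TP53INP1 and XBP1; the cause was not tested. The ratio of the knockdown standard deviations ran from 0.737 to 0.926. The additive and log2 signs differed for 6 called genes, and for 3 with library sizes alone. Low counts limit single genes, as the wide interval of IL6 shows.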
